A study of Mus musculus with 12 samples.

Results

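The genes described here are 10 protein-coding genes that gave reads in every library of wild-type (WT) C2C12 cells and almost none in the libraries labelled as Mapk14 knockout (KO). They are Cd40, Il2rg, Itgb8, Plxdc2, Mal, Mctp1, Add2, Nxf7, Hdx and Rorb. They were chosen by their measured counts: each had at least 10 counts in each of the 6 WT libraries and at most 3 counts in total over the 6 KO-labelled libraries. In the table of 55416 genes, 11928 reached 10 counts in every WT library, and 19 of these (0.159%) also met the limit on the KO-labelled side. The 10 genes are part of those 19, and the other 9 are named below.

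C2C12 is an established mouse myoblast line whose cells fuse into myotubes when serum is lowered. RNA was sequenced from 4 groups of 3 biological replicates: WT cells in growth medium (WT GM, 10% fetal bovine serum), WT cells in differentiation medium (WT DM, 2% horse serum), and the cells labelled Mapk14 knockout in the same media (KO GM and KO DM). All cells were harvested after 5 days and all libraries carry 1 batch date. The labels used here do not say how the gene was edited, how many clones the knockout label stands for, or whether the WT cells were cloned in the same way, so the genotype and a difference between cell lines cannot be told apart. The labels call the replicates biological without saying whether they were separate cultures, so p-values measure the spread between these libraries. Totals were 8821669 to 11536396 counts per library. The third replicates of WT GM and KO GM stood apart from their groups, with a chi-square per gene of 9.66 to 14.6 against their replicates where the other pairs had 3.52 to 6.32.

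Mapk14, which encodes the kinase p38 alpha, was not lower under the knockout label. It ranged over 108 to 135 CPM (counts per 1000000 counts, with library sizes scaled by edgeR's TMM factors) in WT GM and 130 to 137 in KO GM (log2 difference 0.11 ± 0.08 SE, adjusted p = 0.35 by edgeR), and over 88.7 to 93.9 CPM for WT DM against 84.5 to 93.8 for KO DM (-0.03 ± 0.08, edgeR adjusted p = 0.822). A gene's RNA level does not show whether its protein was lost. Each difference between genotypes below is therefore one between libraries as labelled. The myoblast markers Myod1, Myf5, Myog, Pax7, Des, Cdh15, Chrna1 and Msc all had counts in every group. For Msc these were only 0, 1 and 0 counts in KO GM and 1, 0 and 0 in KO DM. All 8 were lower in the KO-labelled libraries in both media by edgeR. The summed level of the 8 was 1662 to 1893 CPM in WT GM against 488 to 601 in KO GM. In DM it was 3760 to 3833 in WT against 1386 to 1576 under the label. This difference lies beside every result on the 10 genes, and its part in them was not tested.

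The 10 genes do not form 1 pathway. Cd40 and Il2rg encode immune receptors. CD40, of the tumour necrosis factor receptor family, signals through TRAF adaptors to NF-kB in B cells and antigen-presenting cells, and the common gamma chain encoded by Il2rg is shared by several interleukin receptors and works through the kinase JAK3. Itgb8 and Plxdc2 encode surface proteins: an integrin beta subunit that pairs with alpha v and binds latent TGF-beta, and a plexin-domain receptor for the secreted factor PEDF. Mal (a raft proteolipid of myelin and T cells), Mctp1 (a membrane-anchored C2-domain calcium-binding protein) and Add2 (beta adducin, which caps actin filaments and joins them to spectrin) act at membranes. Nxf7 (a relative of the mRNA export factor NXF1), Hdx (a divergent homeobox protein) and Rorb (an orphan nuclear receptor best known from retina and cortex) are tied to RNA or transcription.

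**Figure D1:**
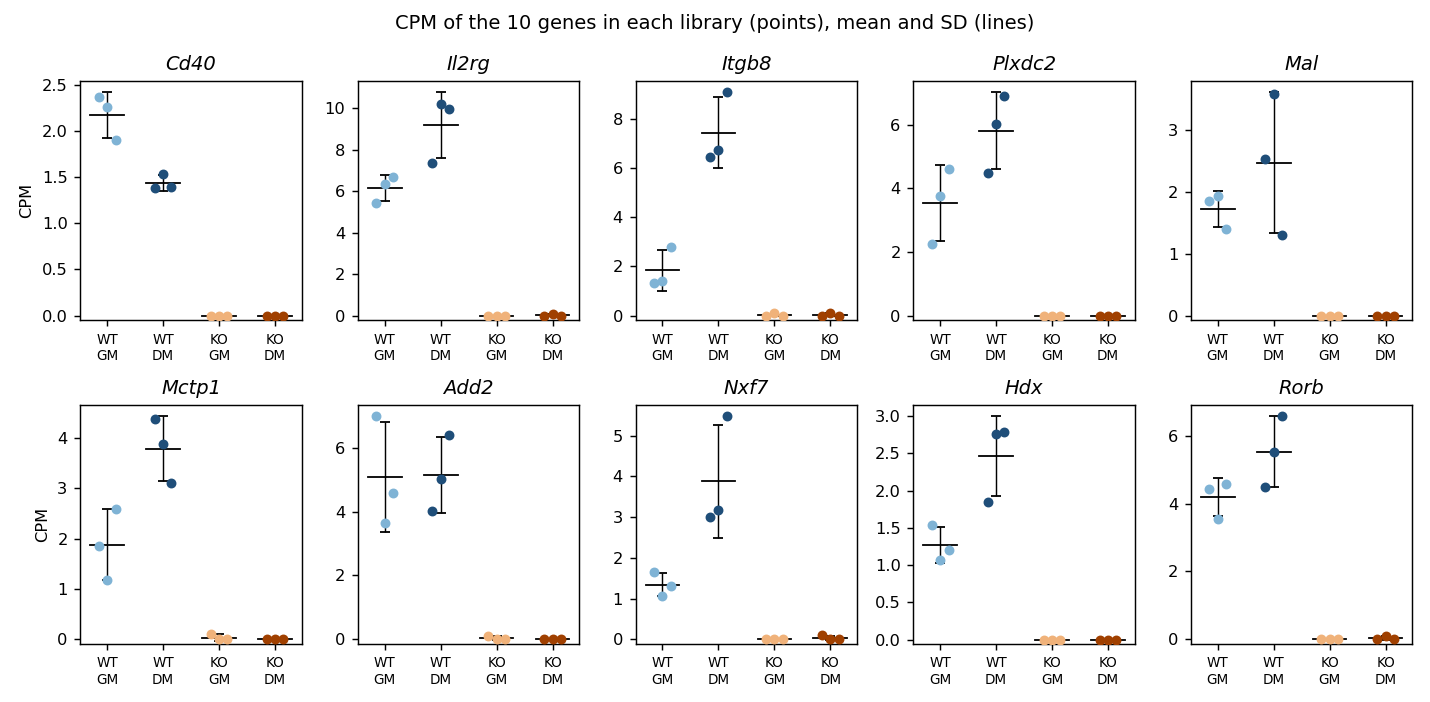
CPM of each of the 10 genes in each of the 12 libraries (points), with the mean (horizontal line) and SD (bars) of the 3 libraries of a group. The KO-labelled libraries lie at 0 or 1 count for all 10 genes, while the WT levels run from about 1 to 10 CPM and shift with the medium to a different degree in each gene.

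Counts of the immune receptors show the pattern. Cd40 (ENSMUSG00000017652) had 23, 21 and 19 counts in WT GM, 12, 15 and 14 in WT DM, and 0 in all 6 KO-labelled libraries. Il2rg (ENSMUSG00000031304) had 53, 59 and 67 counts in WT GM and 64, 100 and 100 in WT DM, against 1 count over the 6 KO-labelled libraries. Il2rg thus had the most reads of the 10 and Cd40 the fewest, 443 and 104 over the WT libraries.

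The surface proteins were at 0 or close to it under the label as well. Itgb8 (ENSMUSG00000025321) had 13, 13 and 28 counts in WT GM, 56, 66 and 91 in WT DM and 2 over the KO-labelled libraries. Plxdc2 (ENSMUSG00000026748) had 22, 35 and 46 in WT GM, 39, 59 and 69 in WT DM and 0 in the KO-labelled libraries. For both genes the third WT GM library held the most counts of its group.

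Of the genes acting at membranes, Mal (ENSMUSG00000027375) had 18, 18 and 14 counts in WT GM, 22, 35 and 13 in WT DM and 0 under the knockout label. Mctp1 (ENSMUSG00000021596) had 18, 11 and 26 in WT GM, 38, 38 and 31 in WT DM and 1 over the KO-labelled libraries. Add2 (ENSMUSG00000030000) had 68, 34 and 46 in WT GM, 35, 49 and 64 in WT DM and 1 over the KO-labelled libraries. The WT media overlapped for Mal and Add2 and lay apart for Mctp1.

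Of the nuclear and RNA-binding proteins, Nxf7 (ENSMUSG00000031410) had 16, 10 and 13 counts in WT GM, 26, 31 and 55 in WT DM and 1 over the KO-labelled libraries. Hdx (ENSMUSG00000034551) had 15, 10 and 12 in WT GM, 16, 27 and 28 in WT DM and 0 under the knockout label. Rorb (ENSMUSG00000036192) had 43, 33 and 46 in WT GM, 39, 54 and 66 in WT DM and 1 over the KO-labelled libraries. Nxf7 and Hdx have the lowest WT counts that the rule admits, 10 in the second WT GM library.

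Exons of Hdx share 2752 bases with the pseudogene Gm7340 on the other strand, which had 21 WT counts and 0 under the label, and the labels used here do not say whether counting used strand. The exon overlaps of Il2rg with Gm20489 and of Add2 with Gm44089 are shorter, and these genes had 2 and 1 WT counts.

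The size of the difference between labels is a lower bound for the 4 genes with 0 counts in all KO-labelled libraries, because a count of 0 allows up to 3 counts. Over both media Plxdc2 was at least 99.3-fold, Mal at least 44.1-fold, Hdx at least 39.7-fold and Cd40 at least 38.2-fold higher in WT, taking 3 counts over the 6 KO-labelled libraries. By medium, the bounds of genes with 0 KO-labelled counts ran from at least 13.6-fold (Hdx) to at least 66-fold (Il2rg) in GM. In DM they ran from at least 15-fold (Cd40) to at least 61.2-fold (Plxdc2). The ratios on 1 KO-labelled count ran from 59.7-fold (Itgb8) to 164-fold (Add2, 95% exact interval 28.9 to 6509) in GM. In DM they ran from 123-fold (Nxf7) to 290-fold (Il2rg, 51.7 to 11510). Bounds and ratios cannot be ranked against each other. For the genes with 1 or 2 KO-labelled counts the ratio is 489-fold for Il2rg (95% exact interval 87.3 to 19350) and 147-fold for Itgb8 (40.4 to 1222), and those of Add2, Rorb, Mctp1 and Nxf7 lie between these. These bounds and intervals hold for counting error alone, because counts were summed over libraries and the spread between replicates is left out. PCR copies of 1 molecule were not told apart, so the counting error itself may be larger. The rule chose the genes by these counts, so no test is given. By edgeR 10.6% of 13250 tested genes were lower in KO GM than in WT GM and 17.4% lower in KO DM than in WT DM, and nothing is read from the members' own place among them. In bulk RNA, fewer cells that express a gene and less RNA per cell cannot be told apart.

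Per kilobase of exon, which allows levels of different genes to be compared, Il2rg was the highest in both media at 2.58 ± 0.267 CPM per kb (SD, n = 3) in WT GM and 3.85 ± 0.661 in WT DM, and its libraries lay above every library of the other 9 genes. Hdx was the lowest, at 0.133 ± 0.0255 and 0.259 ± 0.0565 CPM per kb, and overlapped with Itgb8 in WT GM. In WT GM the order between them was Cd40, Mal, Plxdc2, Add2, Nxf7, Rorb, Mctp1 and Itgb8, from 0.638 ± 0.0721 to 0.167 ± 0.0746 CPM per kb, and neighbours in this order overlapped in their libraries except Rorb and Mctp1. In WT DM Nxf7 came second at 1.43 ± 0.514 CPM per kb and Cd40 next to last at 0.422 ± 0.0243. The neighbours from Nxf7 down to Cd40 overlapped in that order, and Hdx lay below them.

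**Figure D2:**
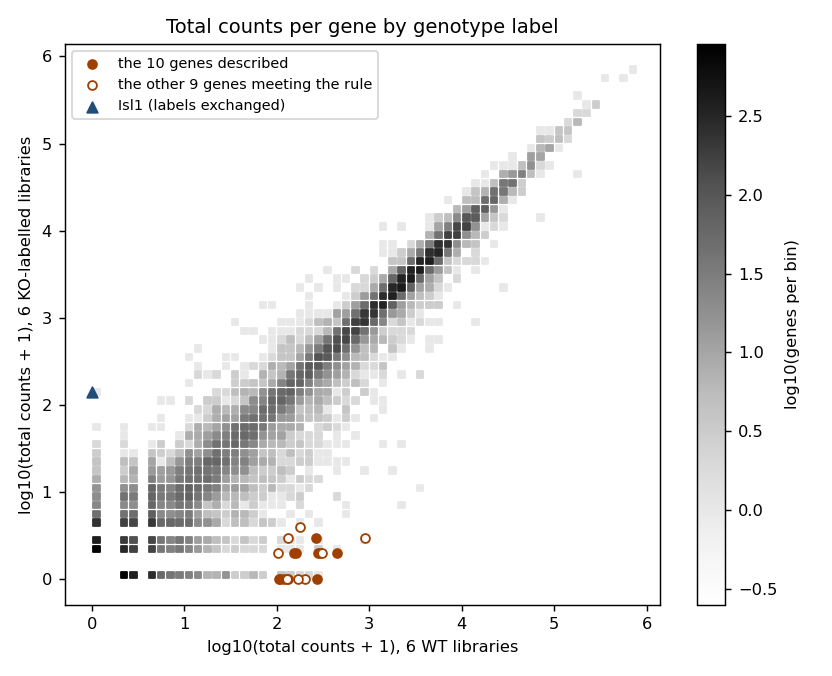
Total counts of each gene over the 6 WT libraries (horizontal) and the 6 KO-labelled libraries (vertical), both as log10(total + 1), with the number of genes per bin in grey. The 10 genes (filled) and the other 9 that met the same rule (open) lie below the diagonal at WT totals of 103 to 898 counts, and Isl1 is the 1 gene that met the rule with the labels exchanged.

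The other 9 genes that met the rule are Tspan7, Dync1i1, Ndn, Clca3b, Arrdc4, Arap2, Soga3, Neto2 and Mill2. Tspan7, an X-linked tetraspanin, had the most WT counts of all 19, 898 against 2 in the KO-labelled libraries. Ndn, which encodes the imprinted growth suppressor necdin, had 199 WT counts and 0 under the label. With the labels exchanged the rule was met by 1 gene of 11856 (0.00843%). This was Isl1, a LIM-homeobox transcription factor gene, with 0 counts in the 6 WT libraries and 141 in the KO-labelled ones, at least 42.6-fold higher. Just outside the limit on KO-labelled counts lay Itga4 with 4 counts and Vgll2 and Thsd4 with 5 each. Just below 10 counts in a WT library lay Ppp2r2b and Hoxc12, with a lowest WT count of 9, and Msc with 8. There was thus no gap in counts at either threshold.

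The response of the 10 genes to DM was tested in the 6 WT libraries alone, where the rule asked only for a minimum. Of the 10 genes 4 rose (Itgb8, Nxf7, Mctp1 and Il2rg) and 0 fell by edgeR, at adjusted p below 0.05 over the 12789 genes tested. Of all genes tested 17.6% rose and 14.5% fell, and of the 1938 with WT totals in the same range as the 10 genes (104 to 443 counts) 16.3% rose and 8.05% fell. The median log2 change was 0.64 for the 10 genes, against -0.01 for all genes tested and 0.01 for those in the same range. At an unadjusted p below 0.05 there were 6 genes higher and 0 lower, against 22.0% and 19.7% of all genes tested. DESeq2 called 2 higher and 0 lower, against 13.8% and 10.7% of the genes it tested. Without WT GM replicate 1, WT GM replicate 2 or WT DM replicate 2, edgeR also called 2 higher. The rule's minimum of 10 counts in each WT library leaves out genes that are silent in 1 medium.

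**Figure D3:**
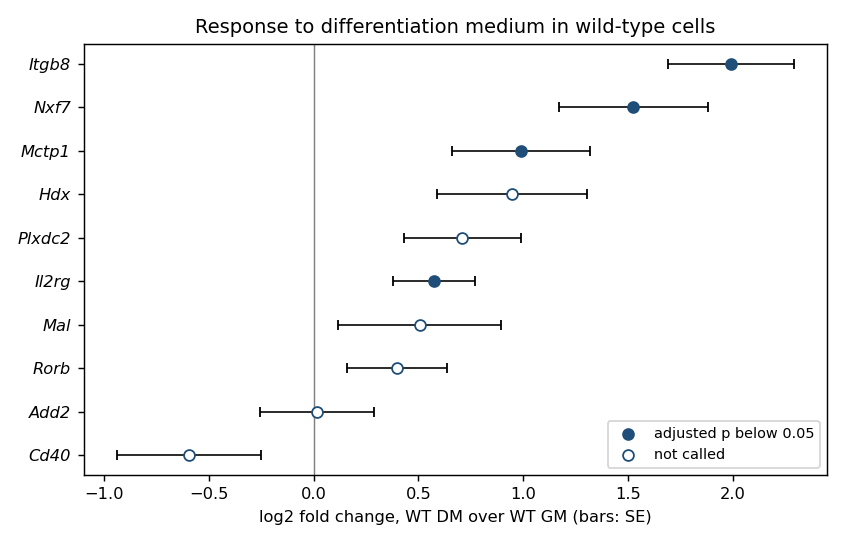
Fitted log2 fold change of each of the 10 genes in WT DM over WT GM (points) with its SE (bars), filled where the adjusted p was below 0.05. Itgb8 stands at 1.99 and Cd40 at -0.59, and the other 8 lie between 0.02 and 1.53.

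Itgb8 had the largest rise. It was at 1.34, 1.4 and 2.8 CPM in WT GM and at 6.45, 6.74 and 9.08 in WT DM, a log2 fold change of 1.99 ± 0.30 (adjusted p = 8.42e-05 by edgeR, and 6.32e-11 to 0.00148 over the alternatives). The lowest DM library thus held more than the highest GM library by a wide margin. Nxf7 rose from 1.65, 1.07 and 1.3 CPM to 2.99, 3.17 and 5.49 (1.53 ± 0.35, edgeR adjusted p = 0.00341), and the third DM library stood above the other two.

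Mctp1 rose from 1.85, 1.18 and 2.6 CPM to 4.38, 3.88 and 3.09 (0.99 ± 0.33, edgeR adjusted p = 0.0309). Il2rg rose from 5.45, 6.34 and 6.69 CPM to 7.37, 10.2 and 9.98 (0.57 ± 0.20, edgeR adjusted p = 0.0342). In both genes all 3 DM libraries lay above all 3 GM libraries, with a small gap. These 2 calls were lost when single libraries were left out: that of Mctp1 without WT GM replicate 1 or 2 or WT DM replicate 1 or 2 (adjusted p 0.0698 to 0.132), and that of Il2rg without WT GM replicate 1 or 2 or WT DM replicate 2 or 3 (0.0746 to 0.142).

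The other 6 genes did not pass the test. Hdx was at 1.27 ± 0.243 and 2.47 ± 0.539 CPM in WT GM and WT DM (SD, n = 3; 0.95 ± 0.36, edgeR adjusted p = 0.0542), with no overlap between the media. Plxdc2 was at 3.54 ± 1.18 and 5.8 ± 1.21 CPM (0.71 ± 0.28, edgeR adjusted p = 0.0629) with overlapping libraries. Without WT DM replicate 1 the adjusted p of Hdx was 0.048 and that of Plxdc2 0.0479, and without WT GM replicate 3 that of Plxdc2 was 0.0122. Mal and Rorb were at 0.51 ± 0.39 and 0.40 ± 0.24 on the log2 scale (edgeR adjusted p = 0.349 and 0.221). Add2 was at 5.08 ± 1.72 CPM in WT GM and 5.14 ± 1.18 in WT DM, a difference of 0.02 ± 0.27 (edgeR adjusted p = 0.97) whose sign turned with the scaling and with the libraries used.

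Cd40 was the 1 gene whose libraries all lay lower in DM. It was at 2.37, 2.26 and 1.9 CPM in WT GM and 1.38, 1.53 and 1.4 in WT DM, a log2 difference of -0.59 ± 0.34 that did not pass the test (edgeR adjusted p = 0.204). Of the 10 genes 5 had all DM libraries above all GM libraries, as 24.0% of all tested genes did, and 1 had them all below, as 21.0% did. The remaining 4 overlapped.

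Among the other 9 genes that met the count rule, Tspan7 rose in WT DM from 6.13 ± 1.4 to 25.2 ± 0.837 CPM (2.03 ± 0.16, edgeR adjusted p = 1.48e-07) and Dync1i1, a dynein intermediate chain gene, by 1.24 ± 0.26. Arrdc4, an arrestin-domain gene, fell by 1.36 ± 0.32 (edgeR adjusted p = 0.00393). The other 6 were not called. The genes near 0 under the knockout label thus included some that rose with the medium, 1 that fell and others that did not pass the test.

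Markers of other cell types were examined because Cd40, Il2rg, Mal and Rorb are best known from immune and neural cells. Of the 11 macrophage and leukocyte markers, Ptprc (the leukocyte common antigen), Cd3e, Adgre1 and Tyrobp had 0 counts in all 12 libraries. The summed level of the 11 was 12.6 to 15.1 CPM in WT GM, 12.9 to 14.8 in WT DM, 14.7 to 15.6 in KO GM and 17.3 to 21.6 in KO DM, most of it Csf1r, Cd68 and Lyz2. Csf1r, the macrophage growth factor receptor gene, was at 8.09 and 9.52 CPM in the WT media and 8.76 and 8.15 in the KO-labelled ones, and Lyz2 rose under the label by 0.82 in GM and 2.10 in DM. Of the 9 neural and glial markers, Rbfox3, Snap25, Mog and Sox10 had 0 counts in all 12 libraries, and the sum was 1.5 to 2.78 CPM in WT GM, 1.84 to 2.25 in WT DM, 1.42 to 2.15 in KO GM and 2.69 to 4.3 in KO DM. Members of this list moved apart. The myelin gene Mbp had 32 and 31 counts in WT GM and WT DM against 8 and 9 in KO GM and KO DM. These were too few to be tested. Syt1 rose under the label in both media, in GM from 0 to about the level of 3 counts in a library. The part of Mbp-expressing cells in the values of Mal, also a myelin gene, was not tested. Endothelial and epithelial markers summed to at most 1.5 CPM in any library. The WT libraries held Cd40 and Il2rg with Ptprc, Cd3e, Adgre1 and Tyrobp at 0 but with Csf1r at 8.09 and 9.52 CPM. The part of leukocytes or other cell types in the values of the 10 genes was not tested.

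The 10 genes lay on 6 chromosomes, 3 of them on the X (Il2rg, Nxf7 and Hdx), 3 on chromosome 2 (Cd40, Plxdc2 and Mal) and 1 each on chromosomes 6 (Add2), 12 (Itgb8), 13 (Mctp1) and 19 (Rorb). Of the 11912 genes with 10 counts in every WT library and a known position, 3.18% were X-linked and 7.92% on chromosome 2. Of all 19 genes meeting the rule 4 were X-linked, Tspan7 being the fourth. With so few genes these shares are a description. Xist, the RNA that coats the inactive X, was at 656 ± 54.8 CPM in WT GM and 702 ± 11.1 in KO GM (SD, n = 3; log2 difference 0.10 ± 0.08, edgeR adjusted p = 0.444), and at 657 ± 39.0 in WT DM and 545 ± 59.9 in KO DM (-0.27 ± 0.08, edgeR adjusted p = 0.0145). Of 417 tested X-linked genes 12.5% were lower and 7.91% higher in KO GM, and 21.6% lower and 9.83% higher in KO DM, with medians of -0.01 and -0.08 on the log2 scale.

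To see whether the low counts extended along the chromosomes, the 3 nearest tested genes on each side of each of the 10 were compared between labels, whatever their distance. Itgb8 has 2 such genes on 1 side, which gives 59 neighbours. In GM 4 of the 59 were lower and 2 higher under the knockout label by edgeR, 10.2% in all against 20.7% of all 13250 genes tested. In DM 9 were lower and 4 higher, 22% against 31.0%. The neighbours were not matched in counts to all genes, and some had few counts, such as Sp8 at 0.795 CPM in WT GM. Nothing is therefore read from these shares or from those of X-linked and autosomal neighbours below. Their median log2 difference was -0.03 in both media, against 0.00 in GM and -0.02 in DM over all genes tested. Without the third GM replicate of both labels 7 neighbours were called in GM.

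The nearest tested genes were Ncoa5 and Slc35c2 at Cd40, Foxo4 and Med12 at Il2rg, Sp8 and Gm6768 at Itgb8, Arl5b and Nebl at Plxdc2, and Mrps5 at Mal. They were Ttc37 and Slf1 at Mctp1, Dusp11 and Fam136a at Add2, Zmat1 and Tcp11x2 at Nxf7, Sh3bgrl and Apool at Hdx, and Trpm6 and Anxa1 at Rorb. Among these genes Tcp11x2 and Anxa1 (by 0.32) fell in GM, and 5 fell in DM (Tcp11x2, Apool by 0.51, Anxa1 by 0.50, Slf1 by 0.40 and Sh3bgrl by 0.36). Trpm6, a magnesium channel gene, rose in DM by 2.68 ± 0.47.

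**Figure D4:**
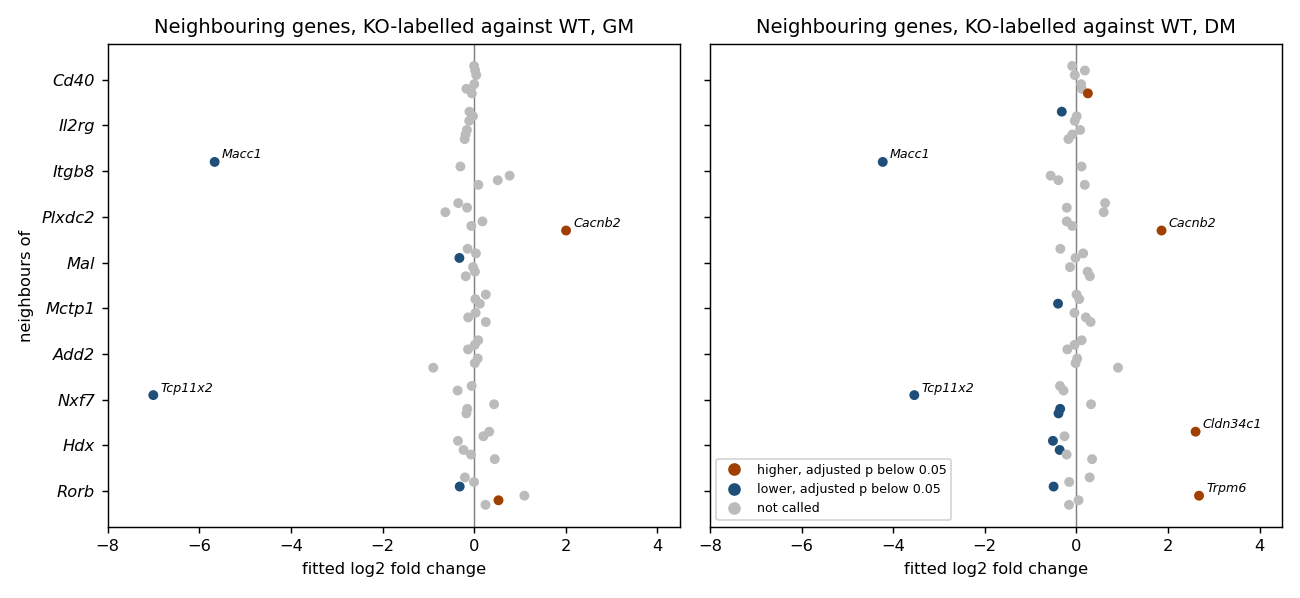
Fitted log2 difference between KO-labelled and WT libraries in GM (left) and DM (right) for the 59 tested neighbours of the 10 genes, each row holding the neighbours of 1 gene in chromosome order. Most points lie near 0, and Macc1 beside Itgb8 and Tcp11x2 beside Nxf7 are the 2 that lie far to the left in both media.

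Macc1, which lies near Itgb8 and encodes a regulator of the receptor gene Met, had 5, 2 and 11 counts in WT GM and 39, 39 and 47 in WT DM, against 0 in KO GM and 0, 3 and 4 in KO DM. It was at least 6.64-fold lower in KO GM (edgeR adjusted p = 0.00417) and 19.6-fold lower in KO DM (95% interval 9.26 to 49.9, edgeR adjusted p = 6.53e-06). Tcp11x2, a testis gene beside Nxf7, has a near-identical copy on the X, Tcp11x1, so its counts are uncertain where reads could be split between them. It had 9, 15 and 22 counts in WT GM and 18, 31 and 29 in WT DM, against 0 in KO GM and 2, 1 and 4 in KO DM. It was at least 17.0-fold lower in KO GM (edgeR adjusted p = 3.52e-05) and 12.3-fold lower in KO DM (5.68 to 31.5, edgeR adjusted p = 4e-05). Both genes had few counts, as had the genes they lie beside. Their bounds and intervals rest on summed counts and hold for counting error alone.

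The other neighbours called in both media were Anxa1, the annexin gene beside Rorb, and Cacnb2 near Plxdc2, a calcium channel subunit gene that rose by 2.01 ± 0.36 in GM and 1.86 ± 0.37 in DM. Around Cd40, Il2rg, Plxdc2, Mal, Mctp1, Add2, Hdx and Rorb no neighbour was lower by more than 1 on the log2 scale with a call. Beside Il2rg, for example, Foxo4 was at -0.16 ± 0.12 and Med12 at -0.11 ± 0.11 in GM, neither called. Of the 18 X-linked neighbours 1 fell and 0 rose in GM, and 6 fell and 1 rose in DM, where 12.5% and 21.6% of all X-linked genes tested fell in GM and DM. Of the 41 autosomal ones 3 fell and 2 rose in GM, and 3 fell and 3 rose in DM. Of all genes tested 10.6% fell and 10.0% rose in GM, and 17.4% fell and 13.6% rose in DM.

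Close relatives of the 10 genes were compared between labels from lists of the same pathways. Add3, the gamma adducin gene, fell from 11.6 ± 2.18 to 4.03 ± 0.192 CPM in GM (-1.53, edgeR adjusted p = 2.45e-06) and from 20 ± 2.28 to 4.89 ± 0.782 in DM (-2.02), while Add1, the alpha adducin gene, was at -0.04 and 0.07 and not called. Rora, the relative of Rorb, fell by 1.24 and 1.14. Nxf3 fell by 1.23 and 1.78, and the general export factor gene Nxf1 was at 0.20 and 0.11 and not called. Of the integrin beta subunit genes that pair with alpha v, Itgb3 fell in both media (-0.57 and -1.26), Itgb1 rose in GM (0.26) and fell in DM (-0.42), Itgb5 rose in DM (0.39) and Itgb6 fell in DM (-0.65). Plxdc1 was not called (0.98 and 0.07). Mctp2 and the Mal relatives Mal2 and Mall had too few counts to be tested.

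In the pathway lists as a whole, 17 of 138 tested genes rose and 26 fell in KO GM, 31.2% called against 20.7% of all genes. In KO DM 28 rose and 31 fell, 42.8% against 31.0%. Without the third GM replicate of both labels 50 were called in GM in place of 43. In WT DM against WT GM 33 of 134 rose and 24 fell, 42.5% against 32.1% of all genes. The lists were chosen with earlier results of these data known, and their genes were not matched in counts to all genes. Nothing is therefore read from these shares. For comparison with each list below, 10.0% of all genes tested rose and 10.6% fell in KO GM. In KO DM 13.6% rose and 17.4% fell. In the CD40 and TNF receptor list 0 of 17 rose and 2 fell in GM, and 7 rose and 2 fell in DM. Traf1, an adaptor gene of this pathway, had 47 and 46 WT counts and 7 and 3 KO-labelled counts in GM and DM. Its level was 7.43-fold (3.34 to 19.5) and 16.9-fold (5.42 to 84.8) lower, with intervals for counting error alone. The noncanonical NF-kB gene Nfkb2 fell in GM (-0.36) and the death receptor gene Fas rose in DM from 10.4 to 25.7 CPM (1.31). In the common gamma chain list 1 of 15 rose and 1 fell in GM, and 5 rose and 1 fell in DM. The feedback inhibitor gene Socs2 fell in both media (-1.27 and -0.75), Stat5b rose in GM (0.32) and Il15ra in DM (2.03).

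In the list on alpha v integrins and TGF-beta activation 4 of 19 rose and 3 fell in GM, and 5 rose and 5 fell in DM. Lrrc32, which encodes GARP, a cell-surface anchor of latent TGF-beta, fell from 25.4 ± 0.804 to 5.61 ± 1.9 CPM in GM (-2.16, edgeR adjusted p = 2.61e-09) and from 38.2 ± 1.23 to 9.2 ± 1.5 in DM (-2.05). The receptor gene Tgfbr2 rose by 1.07 and 1.22. In the spectrin membrane skeleton 2 of 15 rose and 4 fell in GM, and 2 rose and 7 fell in DM, among them Ank1, an ankyrin gene (-1.46 and -1.33). In the MAL and raft list 3 of 12 rose and 2 fell in GM, and 5 rose and 2 fell in DM. Flot1 fell in GM (-0.47) and rose in DM (0.28), Cav2 rose in both (0.47 and 0.26), and in DM Myadm fell (-0.45) and Flot2 rose (0.30).

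Of 15 mRNA export genes 0 rose and 2 fell in GM, Nxf3 and Thoc6 (-0.55), and 1 rose and 2 fell in DM, where Thoc1 was at -0.40. Of 15 ROR and clock genes 0 rose in either medium, and 6 fell in GM and 4 in DM (medians -0.30 and -0.21). Of all genes tested 10.6% fell in GM and 17.4% in DM. The clock transcription factor gene Npas2 had 29 and 23 counts in WT GM and WT DM and 0 in all KO-labelled libraries, at least 10.7-fold and 8.44-fold lower, and the clock output gene Dbp fell by 1.3 and 0.78. Of 9 C2-domain genes 1 rose and 6 fell in GM, and 1 rose and 5 fell in DM (medians -0.47 and -0.53). Doc2b, a calcium sensor of vesicle fusion, fell from 1.68 to 0.145 CPM in GM and from 2.55 to 0.257 in DM. The synaptotagmin gene Syt1 was the 1 that rose, from 0 to 0.349 CPM in GM and from 0.177 to 1.87 CPM in DM. The level of Syt1 in KO GM lies close to the 0.26 to 0.34 CPM that 3 counts make in a library. In the short plexin-domain list 1 of 5 rose and 0 fell in GM, and 1 rose and 1 fell in DM. Serpinf1, which encodes the PLXDC ligand PEDF, rose by 0.21 and 0.45, and Nid1 fell in DM (-0.75).

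In the list on DNA methylation, Polycomb and X inactivation 5 of 16 rose and 0 fell in GM, and 1 rose and 2 fell in DM. In GM Uhrf1, which recruits the maintenance methyltransferase, rose by 0.64 and the Polycomb subunit gene Suz12 by 0.54. In DM Uhrf1 and Xist fell (-0.28 and -0.27) and Ezh1 rose (0.37). Median log2 differences of the 10 lists ran from -0.47 to 0.21 in GM and from -0.53 to 0.18 in DM.

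Promoter windows of 300 bases, from 250 before to 50 after the annotated start, were found for 8 of the 10 genes in the RefSeq table of build GRCm38.p6. They are shown to compare the content of CpG, the dinucleotide that DNA methylation acts on, which is in capitals. The 4 below span the range: the lowest CpG ratio (Nxf7), the gene with the highest level per kilobase (Il2rg), the largest rise in WT DM (Itgb8) and the highest CpG ratio (Rorb). Cd40 and Plxdc2 are named only.
Nxf7, chrX:135598728-135599027, minus strand: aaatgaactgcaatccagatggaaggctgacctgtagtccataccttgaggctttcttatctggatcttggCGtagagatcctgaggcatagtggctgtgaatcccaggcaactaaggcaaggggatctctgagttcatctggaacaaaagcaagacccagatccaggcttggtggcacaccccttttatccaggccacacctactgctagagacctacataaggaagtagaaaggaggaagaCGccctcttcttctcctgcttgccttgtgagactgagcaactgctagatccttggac
Il2rg, chrX:101268206-101268505, minus strand: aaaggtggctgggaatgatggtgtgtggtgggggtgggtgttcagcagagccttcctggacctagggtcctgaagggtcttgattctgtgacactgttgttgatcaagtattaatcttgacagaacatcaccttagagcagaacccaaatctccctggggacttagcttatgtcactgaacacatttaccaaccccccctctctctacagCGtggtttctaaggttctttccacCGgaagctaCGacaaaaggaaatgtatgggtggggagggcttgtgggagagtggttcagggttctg
Itgb8, chr12:119238227-119238526, minus strand: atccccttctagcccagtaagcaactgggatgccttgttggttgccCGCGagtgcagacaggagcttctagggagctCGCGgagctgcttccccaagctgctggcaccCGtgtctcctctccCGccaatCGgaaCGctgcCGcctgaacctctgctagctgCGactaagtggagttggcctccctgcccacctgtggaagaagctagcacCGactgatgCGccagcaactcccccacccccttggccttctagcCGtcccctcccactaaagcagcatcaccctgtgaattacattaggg
Rorb, chr19:19111147-19111446, minus strand: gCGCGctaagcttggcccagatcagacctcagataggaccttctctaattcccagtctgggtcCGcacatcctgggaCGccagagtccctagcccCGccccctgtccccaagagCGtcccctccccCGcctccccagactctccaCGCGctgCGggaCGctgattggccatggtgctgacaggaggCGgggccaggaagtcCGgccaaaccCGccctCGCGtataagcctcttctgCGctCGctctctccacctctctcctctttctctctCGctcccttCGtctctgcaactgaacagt

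The observed over expected CpG ratio was 0.107 in the Nxf7 window (2 CpG), 0.163 in that of Il2rg (3), 0.488 in that of Itgb8 (13) and 0.713 in that of Rorb (20). A further start of Rorb had 0.403 and one of Nxf7 0.11. Mctp1 was at 0.164, Mal at 0.423, Hdx at 0.463 and Add2 at 0.48. The median over 12648 windows of tested genes was 0.749 (quartiles 0.515 and 0.905), and that over 1629 windows of genes with WT totals in the range of the 10 genes was 0.601 (0.304 and 0.807). The 2 Nxf7 windows share 296 bases and are counted once below, which leaves 9 windows of 8 genes. All 9 were below the first median, and 8 were below the second, the exception being the CpG-rich start of Rorb.

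**Figure D5:**
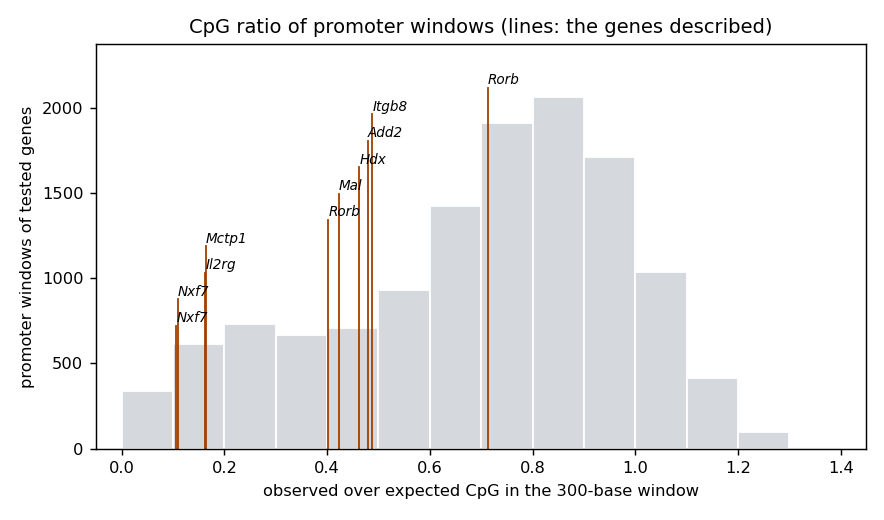
Number of promoter windows of tested genes by observed over expected CpG ratio (bars), with the ratio of each of the 10 windows of the genes described as a line, the 2 of Nxf7 being nearly the same stretch. The lines of Nxf7, Il2rg and Mctp1 lie below 0.2 and that of the CpG-rich Rorb start at 0.713.

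Motifs of 3 kinds of transcription factor were searched on both strands, and matches of different motifs may overlap. The AP-1 motif TGANTCA was found in the Mctp1 window and in the CpG-poorer Rorb window, 2 of the 9 windows, and in 5.3% of all windows of tested genes. The E-box CANNTG was found in 6 of the 9 and in 63.5% of all windows. The NF-kB motif, GGG and CC with any 5 bases between them, was found in 6 of the 9 and in 66.7% of all windows. A match is a description of letters and not a bound site.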

How the data were processed

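RNA-seq counts per gene from 12 libraries of C2C12 cells were used, 3 in each of 4 groups taken from the labels. The deposited table holds the authors' whole-number counts for 55416 genes, of which 52083 have a symbol. The tools named, per the submitters' processing notes, are the aligner STAR 2.7.1a, the quantifier RSEM 1.3.3, DESeq2 1.40.2 and R 4.3.1, with build GRCm39. The tool behind the counts, the annotation release and whether strand was used are not given there. Per the labels' protocols reads were paired, 150 bp. Another 4 columns are empty.

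The members and lists were chosen with earlier results of these data known. Response to medium was tested with edgeR 4.0.16 (R 4.3.3, limma 3.58.1) by its quasi-likelihood test on the 6 WT libraries (TMM factors, filterByExpr, robust estimation, 12789 genes). Differences between labels were tested in a fit to all 12 libraries (13250 genes). P-values were adjusted by Benjamini-Hochberg over all genes tested, at a threshold of 0.05. The WT libraries alone were used for the first because the members are at or near 0 in the others, which then carry no information on their spread. CPM used TMM-scaled totals, and a count of 0 allows 3 counts, 0.26 to 0.34 CPM per library. The scripts were tested on simulated data.

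Genes named are the 10 members, the others meeting the rule, those just outside it, of each list up to 4 called genes with the largest change, relatives of members, and neighbours nearest or called in both media, except 1 nearest neighbour and 1 marker that are not reported here. Levels per kilobase used merged exons of GENCODE M21, matched by gene ID. Chromosomes and neighbours come from the same annotation (GRCm38), whose coordinates were not mixed with those of the files. Alternatives were other scaling factors, DESeq2 1.42.0, other filters, no robust estimation, a replicate block, other sets of libraries, each replicate left out and other count thresholds.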

Additional observations from a re-analysis of the deposited data

Results flagged for a closer look

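No member stands here, since their levels under the knockout label are near 0. Among the pathway genes, 11 had a difference between labels that itself differed between the media by edgeR's interaction test. The values are the log2 difference between KO-labelled and WT libraries in DM minus that in GM. It was 0.95 for Fas (adjusted p = 0.0297), 0.51 for Socs2 (0.0232), 0.60 for Itgb5 (0.0481) and 0.75 for Flot1 (0.00202). It was -0.67 for Itgb1 (2.08e-04), -0.68 for Itgb3 (0.0161), -0.39 for Myadm (0.0244) and -0.89 for Nid1 (0.0343). For Xist, Uhrf1 and Suz12 it was -0.37 (0.0486), -0.92 (2.77e-05) and -0.56 (0.00809).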

How the results depend on the processing

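Low counts limit what can be seen: the members had 10 to 100 counts per WT library. Itgb8 and Nxf7 kept direction and call in all 15 alternatives. The number of members higher in WT DM was 4, 2 with DESeq2, and 2 to 5 with a replicate left out. The lost calls were those of Il2rg and Mctp1, which DESeq2 gave adjusted p = 0.102 and 0.0817, and with all 12 libraries in the fit Il2rg had 0.0641 by edgeR. Add2 turned sign with upper-quartile factors (-0.004), total counts alone (-0.023), and without WT GM replicate 2 (-0.17), WT GM replicate 3 (-0.05) or WT DM replicate 3 (-0.18), and ranged from -0.18 to 0.32 over the replicates left out. Over the 10 members and 15 alternatives 129 of 150 values kept direction and call. The count rule was met by 35 genes at 5 counts in every WT library, 7 at 20 counts, 8 with 0 counts under the knockout label and 38 with at most 10.

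The labels do not say that replicate numbers mark a shared culture or day, and same-numbered libraries correlated by -0.09 to 0.19 in their deviations from group means, so the numbers were not taken as pairs. As a hint from the data, all 3 WT GM libraries correlated best with their own number in WT DM, and 13 of 18 did so over all pairs of groups. Against this, KO GM libraries 1, 2 and 3 correlated best with KO DM libraries 2, 1 and 1. With the replicate number as a block 5 members were higher, Plxdc2 being added (0.72, edgeR adjusted p = 0.0287). No filter on low counts also added Plxdc2 (adjusted p = 0.0366). List genes called in GM and DM were 46 and 63 with the block.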

Other observations

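Of the 6 genes just outside the count limits 5 rose in WT DM and 0 fell, where 17.6% of all genes tested rose. Genes tied in their distance to a limit were taken by the highest WT total. Below the WT limit this favours genes that are low in 1 medium and high in the other, so nothing is read from this share. Itga4, an integrin alpha subunit gene, rose in WT DM from 2.46 ± 1.08 to 8.5 ± 1.36 CPM (SD, n = 3; log2 1.77 ± 0.28, edgeR adjusted p = 1.29e-04). Ppp2r2b, a phosphatase regulatory subunit gene with 0 counts in the KO-labelled libraries, rose by 1.66 ± 0.32, and Msc, a bHLH gene of muscle precursors, by 1.73 ± 0.35. Vgll2, a cofactor of TEAD factors in muscle, rose by 0.82 ± 0.17 and Thsd4 by 0.85 ± 0.27. Hoxc12 was not called (-0.36 ± 0.42, edgeR adjusted p = 0.545).

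Isl1, the 1 gene that met the rule with labels exchanged, was at 1.87 ± 0.912 CPM in KO GM and 2.54 ± 0.538 in KO DM. These levels are of the size that the 10 genes have in WT cells. It was not tested between media.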
